A study of Mus musculus with 19 samples.

Results

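Matched STUS hotspots are the autosomal DMC1 hotspots of the B6xSTUS hybrid male with Prdm9 genotype STUS/B6 that were assigned to the STUS allele of PRDM9 and that drew 25 to 75% of their DMC1 reads from the B6 chromosome, both ends included. There were 2952 of them. They made up 36.3% (95% Wilson interval 35.3 to 37.4%) of the 8122 autosomal STUS hotspots with a B6 fraction, 33.3% of all 8865 autosomal STUS hotspots and 17.1% of the 17309 autosomal hotspots of the STUS/B6 library. The whole table held 18069 hotspots, and the 5 hotspot tables of the study held 74327. Of the other STUS hotspots, 4411 drew more than 75% of their reads from the B6 chromosome (B6 side), 759 drew less than 25% (STUS side) and 743 had no B6 fraction. The B6 fraction and the allele chose the matched hotspots, so both are given for STUS/B6 as a description only. Every interval below is a 95% interval over the hotspots of a library and covers counting error only.

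The study mapped meiotic double-strand breaks (DSBs) in whole testes of adult hybrid male mice by DMC1 single-stranded DNA sequencing (SSDS). STUS/Jpia is a strain of M. m. musculus, and C57BL/6J (B6) is a laboratory strain mostly of M. m. domesticus descent. The STUS/B6 male carried the Prdm9 alleles of both parents. The STUS/Hum male carried the same STUS allele and, in place of the B6 allele, a humanized allele in which the DNA-binding zinc fingers are those of human PRDM9 B. Both genomes are otherwise F1 hybrids of the same strains, named B6xSTUS in the sample labels and STUSB6F1 in the study, which describes its STUSB6F1 hybrid as infertile. The names differ in the order of the parents, and which cross gave the sequenced males is not settled by them. For the STUS/B6 male, the X chromosome reads described below give a B6 mother. The mother of the STUS/Hum male is not given here. There was 1 library per genotype, so no replicate error between genotypes can be given and no test between them was made. No source used here says whether the DMC1 signal is scaled to sequencing depth, and the B6 fractions come without their read numbers, so the depth behind them is unknown.

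PRDM9 is a meiotic histone methyltransferase whose zinc fingers bind a DNA motif and place the DSBs of meiotic recombination. DMC1, a meiosis-specific recombinase, coats the single-stranded ends of a resected break, so the reads recovered with it mark where breaks formed and, through SNPs, on which homolog. Motifs that PRDM9 binds tend to be lost over generations in the lineage that carries the allele, because the cut chromosome is repaired from the uncut one. In a hybrid, an allele can therefore find its motif intact on the chromosome of the other subspecies and damaged on its own. A hotspot cut on both homologs is called matched, and such hotspots are of interest because binding on both homologs is linked to pairing and synapsis of the chromosomes.

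The sequences below show 3 matched STUS hotspots in the B6 reference and need not be typical of the others. They come from the RefSeq promoter windows of GRCm38.p6 (250 bases before to 50 after a gene start), the only windows used here, which held the centers of 4 of the 2825 matched hotspots on the 18 autosomes covered. The 3 with the larger DMC1 signals are printed 5′ to 3′ on the strand of the gene, and capitals mark 21 bases around the hotspot center, or as many as the window holds.
Tbc1d5: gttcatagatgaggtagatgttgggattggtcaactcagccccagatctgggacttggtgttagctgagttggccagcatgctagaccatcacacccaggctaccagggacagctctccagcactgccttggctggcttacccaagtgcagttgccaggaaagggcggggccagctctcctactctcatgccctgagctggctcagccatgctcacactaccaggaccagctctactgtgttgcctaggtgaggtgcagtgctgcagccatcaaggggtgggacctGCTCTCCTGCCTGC
Gm41218: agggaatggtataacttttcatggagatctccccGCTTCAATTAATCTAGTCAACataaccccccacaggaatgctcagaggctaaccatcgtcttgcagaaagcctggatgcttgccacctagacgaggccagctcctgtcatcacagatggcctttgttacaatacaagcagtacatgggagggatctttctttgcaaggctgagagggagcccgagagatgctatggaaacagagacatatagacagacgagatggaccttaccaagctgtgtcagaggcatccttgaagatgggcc
Gm46229: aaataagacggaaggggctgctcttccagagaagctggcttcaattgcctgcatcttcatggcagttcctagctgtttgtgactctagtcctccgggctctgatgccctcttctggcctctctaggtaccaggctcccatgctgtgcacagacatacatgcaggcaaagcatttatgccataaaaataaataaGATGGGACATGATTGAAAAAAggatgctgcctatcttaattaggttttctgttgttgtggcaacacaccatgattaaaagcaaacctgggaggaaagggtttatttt
The window of Tbc1d5 lies at chr17:51159329-51159628 on the minus strand, with the hotspot center 46 bases past the gene start. This hotspot had a DMC1 signal of 91.1 in STUS/B6 and a B6 fraction of 35.7%. The window of the lncRNA gene Gm41218 lies at chr14:79680703-79681002 on the plus strand, with a center 206 bases before the start, a signal of 55.3 and a B6 fraction of 64.5%. The window of Gm46229 lies at chr10:67311383-67311682 on the plus strand, with a center 47 bases before the start, a signal of 40.9 and a B6 fraction of 55.8%. The hotspot in the window of 4932435O22Rik had a signal of 10.9 and a B6 fraction of 50%. None of the 4 was called in STUS/Hum, where 31.5% of all matched STUS hotspots were called. That share rose with DMC1 signal, as described below. Among matched hotspots in the same quintile of signal it was 74.5% for Tbc1d5, 24.2% for Gm41218 and Gm46229 and 1.97% for 4932435O22Rik. With only 4 hotspots, a difference between promoter hotspots and the others cannot be judged. The windows of the 4 held 1, 5, 2 and 6 CpG dinucleotides in this order, against a median of 7 over all promoter windows.

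Within the range that chose them, the matched hotspots leaned to the B6 chromosome. The median B6 fraction was 54.5% (quartiles 44.8 and 63.5%), with 1773 hotspots above 50%, 1047 below and 132 at 50% exactly. By steps of 10 points from 25 to 75% there were 237, 505, 758, 826 and 626 hotspots. The lower edge of the range lay at the end of a trough, with 83 STUS hotspots from 20 to 25% and 114 from 25 to 30%. The upper edge lay beside a shallower one, with 302 hotspots from 70 to 75%, 217 above 75% up to 80% and 294 from 80 to 85%. With the hotspots at exactly 75% moved to the next step, the numbers were 273, 246 and 294. The depth of this trough thus depends on where those hotspots are counted. At exactly 25% there were 24 hotspots with a median signal of 24.0, and at exactly 75% there were 29 with a median signal of 25.9. The nearest STUS hotspots outside were at 24.8%, with a signal of 33.1, and at 75.1%, with a signal of 98.3.

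**Figure D1:**
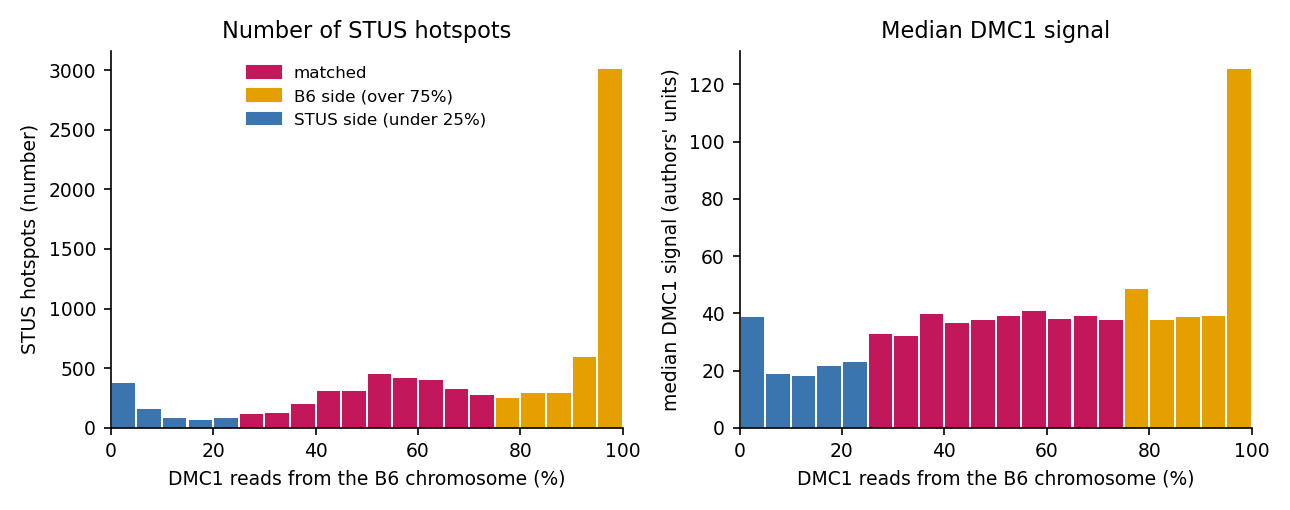
Number (left) and median DMC1 signal in the authors' units (right) of autosomal STUS hotspots of STUS/B6 by the percentage of DMC1 reads from the B6 chromosome, in steps of 5 points. The matched hotspots form a broad hill around the middle with an even median signal, and the tallest bar, from 95 to 100%, holds 3011 hotspots with a median signal of 126; the 29 hotspots at exactly 75% are drawn in the first bar above that limit.

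Matched STUS hotspots had lower DMC1 signals than those on the B6 side, and strength here means this signal, not the number of breaks. Their median DMC1 signal was 37.9 (interval 36.6 to 39.2, quartiles 20.5 and 75), against 86.3 (80.4 to 92.0) on the B6 side, 26.2 (24.3 to 28.2) on the STUS side and 15.6 where no B6 fraction was listed. Matched hotspots of the B6 allele in the same library had a median of 37.5. The median of the matched STUS hotspots was below that of the B6 side on 19 of 19 autosomes. Inside the matched range the signal was nearly level, with medians of 32.7, 37.7, 38.3, 38.9 and 38.6 from the lowest to the highest 10 points of B6 fraction. The B6 side was not uniform either. Its hotspots above 75% up to 80% had a median of 54.5, those at 80 to 95% had medians of 37.7 to 39.2 in steps of 5 points, close to the matched hotspots, and the median was 126 at 95% and above. The study cites reports of slower repair of breaks at hotspots with an eroded copy of the motif. The part of repair speed in these signals was not tested.

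**Figure D2:**
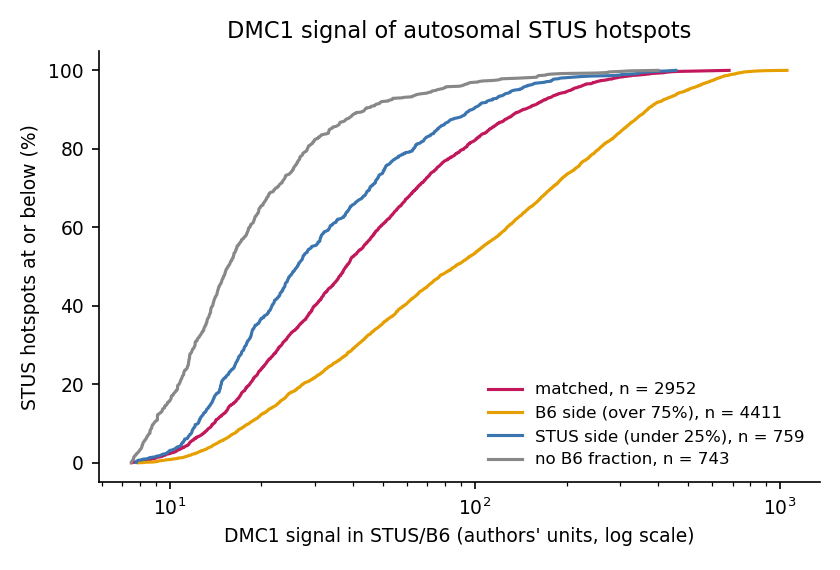
Cumulative share of autosomal STUS hotspots of STUS/B6 (y axis, %) at or below a DMC1 signal (x axis, authors' units, log scale), with a line for each class of B6 fraction. The matched line lies between the STUS side and the B6 side, and the medians are 26.2, 37.9 and 86.3.

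The strongest STUS hotspots were seldom matched. Only 3 of the strongest 100 with a B6 fraction, 31 of the strongest 500 and 86 of the strongest 1000 were matched, and the strongest matched hotspot ranked 55. With all autosomal STUS hotspots cut into quintiles by signal, the matched share of those with a B6 fraction was 46.1, 45.8, 43.8, 35.1 and 14.4% from the weakest quintile to the strongest. The last value (interval 12.9 to 16.2%) stood apart from the other 4, whose intervals began at 32.9% or above. As a result matched hotspots held 21.2% of the DMC1 signal of the STUS hotspots with a B6 fraction, below their 36.3% by number.

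The 10 matched hotspots with the largest signal were spread over 8 autosomes. All 10 were also called in STUS/Hum and were matched there too, and 9 of the 10 had a lower B6 fraction there. These counts are near the general shares. In the strongest quintile 98.4% of matched hotspots were called in STUS/Hum, and 95.6% of those with a fraction were matched again. Of all STUS hotspots with a fraction in both libraries, 82.8% had a lower one in STUS/Hum. That share includes the one-sided classes, for which the direction was largely set by how they were chosen. The share of matched hotspots alone is given below. The strongest, at chr1:150415134 in Tpr, a gene for a protein of the nuclear pore basket, had DMC1 signals of 682 and 271 and B6 fractions of 65.7 and 62.6%, the value of STUS/B6 first and that of STUS/Hum second. The next, at chr15:35619981 in Vps13b, which encodes a lipid-transfer protein of the Golgi, had signals of 658 and 248 and fractions of 55.8 and 46.0%. The third, at chr2:56609756, lay outside genes, 167 kb from the lncRNA gene Gm33458, with signals of 632 and 248 and fractions of 51.7 and 38.5%. All pairs of values that follow are in this order.

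The hotspot at chr1:23848429 in Smap1, a GTPase-activating protein of vesicle traffic, had the largest signal of any matched STUS hotspot in STUS/Hum, with 575 and 339, and its B6 fraction was 52.2 and 34.8%. A hotspot on chromosome 18 had signals of 546 and 116 and fractions of 62.4 and 55.6%. At chr13:76486470 in Mctp1, a membrane protein with C2 domains, the signals were 546 and 154 and the fractions 40.9 and 40.0%. This was the lowest B6 fraction of the 10 in STUS/B6.

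At chr2:23151474 in Mastl, a mitotic kinase, the signals were 502 and 211 and the fractions 49.8 and 38.3%, and another hotspot of the library lay 3975 bp away. The hotspot at chr14:26626853 in Dennd6a, an exchange factor for a Rab GTPase, had signals of 484 and 149 and was the one with a higher fraction in STUS/Hum, 53.6 against 57.0%. At chr5:4620717, 133 kb from the Wnt receptor gene Fzd1, the signals were 461 and 167 and the fractions 61.2 and 53.1%. The last of the 10, at chr12:52198817 in Nubpl, an assembly factor of respiratory complex I, had signals of 449 and 159 and fractions of 47.6 and 43.7%. Of the 10 centers, 8 lay within a gene, as did 60.3% of all matched hotspots.

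Every autosome carried matched STUS hotspots, in number from 77 on chromosome 19 to 210 on chromosome 1. Per Mb between the first and last hotspot of a chromosome there were 1.02 on chromosome 14 to 1.49 on chromosome 18, with 1.24 over all autosomes. The matched share of STUS hotspots with a B6 fraction ran from 32.5% (interval 28.4 to 36.9%) on chromosome 11 to 39.3% (34.3 to 44.6%) on chromosome 16. On 19 of 19 autosomes the interval held the share of all autosomes, 36.3%, so no autosome stood out at this number of hotspots. The median signal ran from 33.9 on chromosome 3 to 47.8 on chromosome 17. The strongest matched hotspot of an autosome had a signal between 284, at chr17:41975155 with a B6 fraction of 72.9%, and the 682 of the hotspot in Tpr. All 19 of these were called in STUS/Hum, and 18 were matched there, near the 98.4 and 95.6% of matched hotspots in the strongest quintile. The exception, on chromosome 11 and 134 kb from the glutamate receptor gene Gria1, had fractions of 73.6 and 77.0%.

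**Figure D3:**
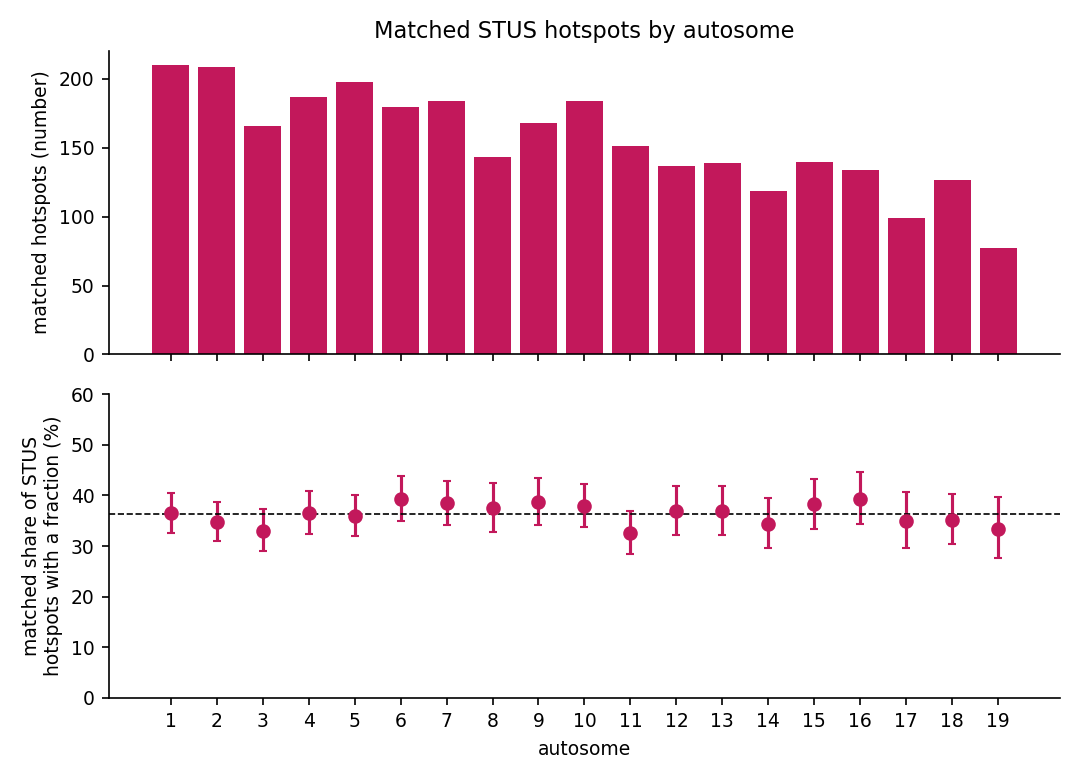
Number of matched STUS hotspots on each autosome (top, bars) and their share of the STUS hotspots with a B6 fraction (bottom, points in %, bars are 95% Wilson intervals, the dashed line is the share over all autosomes). Numbers run from 77 to 210, and all 19 intervals cross the dashed line at 36.3%.

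Neighboring matched STUS hotspots were a median of 503 kb apart (interval 472 to 532, quartiles 203 and 1108 kb), against 169 kb between neighboring STUS hotspots of any class and 313 kb between those on the B6 side. These sets hold 2952, 8865 and 4411 hotspots on the same autosomes. Spacing widens as the number falls, so these medians cannot be read as a difference in layout. Of the 2933 gaps between matched hotspots, 13.5% were under 100 kb, 28.0% were over 1 Mb and 14 were under 5 kb. The closest pair, at chr7:122309519 and chr7:122310775, lay 1.256 kb apart in Prkcb, a gene for a protein kinase C. Their signals in STUS/B6 were 52.8 and 36.7 and their B6 fractions 63.9 and 62.0%, and only the second was called in STUS/Hum, with a B6 fraction of 36.4%. The widest gap, 10.6 Mb, ran from chr12:17525391, 19.4 kb from the polyamine synthesis gene Odc1, to chr12:28172602.

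Matched hotspots lay among other hotspots much as the one-sided ones did. The nearest hotspot of any allele was a median of 43.0 kb away (interval 40.4 to 44.8), against 41.5 kb for the B6 side and 47.6 kb for the STUS side. The nearest hotspot of the B6 allele was 124 kb away, against 116 and 135 kb. A B6 hotspot within 5 kb was found for 2.37% (interval 1.88 to 2.99%) of matched hotspots and 1.75% (1.40 to 2.18%) of the B6 side, intervals that overlap. The next STUS hotspot with a B6 fraction along the chromosome was matched after 38.1% (36.4 to 39.9%) of matched hotspots, 34.7% (33.3 to 36.1%) of the B6 side and 38.7% (35.3 to 42.2%) of the STUS side. These shares differ by a few points, and the interval after matched hotspots overlaps the interval after the STUS side and lies just above that after the B6 side. In this order the matched hotspots formed 1830 runs, of which 1146 were single hotspots and 43 held 5 or more.

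The 10 Mb windows with the most matched hotspots, 27 each, were at 30 to 40 Mb of chromosome 2 and 130 to 140 Mb of chromosome 5, against a median of 12 over the 254 windows with a STUS hotspot. Only 2 windows held none. The places that follow were picked after their values were seen. The longest run, of 10, spanned 4433 kb from chr8:17323582 to chr8:21756556. Among 227 windows with at least 20 STUS hotspots with a B6 fraction, the matched share ran from 3 of 29 at 150 to 160 Mb of chromosome 4 to 25 of 34 at 110 to 120 Mb of the same chromosome, which is 10.3% (interval 3.58 to 26.4%) and 73.5% (56.9 to 85.4%). As extremes of 227 windows these 2 values are a description. With each chromosome cut into 3 equal lengths, the matched share was 37.3% (35.5 to 39.2%) in the proximal one, 38.2% (36.3 to 40.1%) in the middle one and 33.7% (32.0 to 35.5%) in the distal one.

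Centers of the 3 classes lay within genes in similar shares and differed in their distance to gene starts. Centers lay within a RefSeq gene for 60.3% of matched hotspots, 59.9% of the B6 side and 56.7% of the STUS side, and within a protein-coding gene for 53.7, 52.1 and 49.3%. On the 18 autosomes with listed gene starts, which leave out chromosome 18, 29 of 2825 matched hotspots were within 1 kb of one, 1.03% (interval 0.716 to 1.47%), against 93 of 4211 on the B6 side, 2.21% (1.81 to 2.70%), and 13 of 725 on the STUS side, 1.79% (1.05 to 3.04%). The median distance to a gene start was 36.7 kb (34.1 to 38.7), longer than the 31.0 kb (29.4 to 32.9) of the B6 side and shorter than the 44.1 kb (37.5 to 53.3) of the STUS side. The 3 classes differ in DMC1 signal as well, and its part in these distances was not tested.

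The X chromosome, of which a male has 1 copy, here that of B6, gives a background for B6 reads placed on the STUS chromosome. It cannot show STUS reads placed on the B6 chromosome. Of 347 STUS hotspots on the X chromosome with a B6 fraction, 0 were in the matched range, which allows a share of up to 0.865% by the rule of 3 counts of the total, and up to 1.10% by the Wilson interval. Their median B6 fraction was 100% and the lowest 81.8%, so the reads of the X chromosome were those of B6. A male has his X chromosome from his mother, so the mother of the STUS/B6 male was B6. With the mother named first, this is the order of the label B6xSTUS and not of the name STUSB6F1. Over hotspots of every allele, 5 of 651 on the X chromosome were in the matched range, 0.768% (0.328 to 1.79%).

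The next comparison asked which matched hotspots were seen again with the same STUS allele beside another partner allele. A hotspot was taken as called in STUS/Hum if a hotspot center of that library lay within 500 bp. This held for 931 of 2952 matched STUS hotspots, 31.5% (interval 29.9 to 33.2%), where the background was 21.8% of all autosomal hotspots of STUS/B6 and 40.2% of the STUS hotspots. On the B6 side 53.4% (51.9 to 54.9%) were called, on the STUS side 26.4% (23.3 to 29.6%) and without a B6 fraction 10.9%. Matched hotspots of the B6 allele, which is missing from STUS/Hum, were called there in 8 of 2130 cases, 0.376%. Alleles were assigned by comparison with other mice, so a low share for B6 hotspots and a high share for STUS hotspots may be partly built in. In STUS/Hum 903 of the 931 were assigned to the STUS allele and 28 to none, and 0 were assigned to the humanized allele, which allows up to 0.322% by the rule of 3 counts of the total, and up to 0.411% by the Wilson interval. The same way of assigning alleles may have set this 0 in advance, so the 0 and its limits are a description only. Centers in the 2 libraries lay a median of 65 bp apart, with 64.4% within 100 bp.

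Recall followed the DMC1 signal. Recalled matched hotspots had a median signal of 105 in STUS/B6 (interval 101 to 111) and the others one of 26.7 (25.4 to 28.0), while their median B6 fractions were 55.3 and 54.4%. From the weakest to the strongest quintile of STUS hotspots, 1.97, 4.53, 24.2, 74.5 and 98.4% of matched hotspots were recalled, the last being 250 of 254. On the B6 side the shares were 2.16, 2.62, 16.7, 71.8 and 99.0%. Within quintiles the intervals of these classes overlapped except in the third, where median signals were 46.6 and 47.9 and the matched share (interval 21.2 to 27.4%) was above that of the B6 side (14.3 to 19.5%). The STUS side had the highest share of the 3 classes in the second quintile, 10.3% (6.92 to 15.1%), and in the third, 41.9% (34.5 to 49.8%), with intervals apart from those of the other classes. In the fourth quintile its share was 79.5% (71.3 to 85.8%), which overlaps the intervals of both. In the strongest quintile it had the lowest, 16 of 25 hotspots or 64.0% (44.5 to 79.8%). Recall of matched hotspots was below that of the B6 side on 19 of 19 autosomes and ran from 23.2 to 43.1%. The STUS/Hum table was the smaller, and hotspots that were not called lay a median of 80.4 kb from its nearest hotspot.

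**Figure D4:**
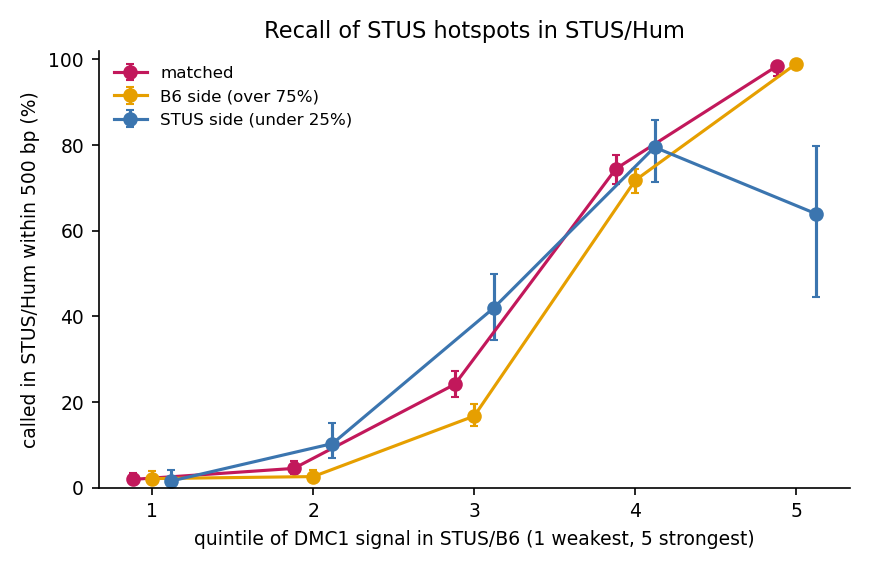
Share of autosomal STUS hotspots of STUS/B6 with a hotspot center of STUS/Hum within 500 bp (y axis, %) by quintile of DMC1 signal (x axis), for the 3 classes of B6 fraction, with 95% Wilson intervals. All classes start near 2%, and the matched and B6 side lines end at 98.4 and 99.0%.

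Where a matched hotspot was recalled, it was nearly always matched again. A B6 fraction was listed in STUS/Hum for 863 of the 931, and it was 25 to 75% at 800 of them, 92.7% (interval 90.8 to 94.2%). The background, over all STUS hotspots with a fraction in both libraries, was 31.1%, and 31.3% over all autosomal hotspots. Only 9.10% (7.99 to 10.4%) of the B6 side and 16.8% (12.2 to 22.7%) of the STUS side were in the matched range in STUS/Hum. Of the 63 matched hotspots that left the range, 50 were below 25% and 13 above 75%. Recalled hotspots are the stronger ones, so this share describes them and not the 2021 that were not recalled. In the strongest quintile, where nearly all were recalled, 238 of 249 were matched again, 95.6% (92.3 to 97.5%). The share was lowest next to the lower limit, 66.0% (52.2 to 77.6%) for hotspots at 25 to 35%, and 92.5 to 97.3% in the other steps.

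The B6 fraction of matched hotspots was lower in STUS/Hum. Over the 863 hotspots the medians were 55.6 and 45.5%, and the median of the differences, STUS/Hum minus STUS/B6, was −9.21 points (interval −10.5 to −8.11, quartiles −17.5 and −0.754). It was lower at 663 hotspots, 76.8% (73.9 to 79.5%), against a background of 82.8% of all STUS hotspots, and higher at 199. The median difference was negative on 19 of 19 autosomes, from −3.16 points on chromosome 14 to −16.8 on chromosome 5. On the B6 side, where the median was 98.9% in STUS/B6, the difference was −4.91 points (−5.17 to −4.57), and on the STUS side, where it was 2.23%, it was 9.52 points (8.31 to 11.1). The one-sided classes were chosen at the ends of the scale in STUS/B6, so the direction of their differences was largely set by that choice.

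From 25 to 75% of B6 fraction in STUS/B6, in steps of 10 points, the median differences were −0.889, −1.19, −8.27, −12.2 and −15.1 points. These steps are made on a value that the difference contains, which builds in more negative differences at higher fractions, so the values are a description only. Since the hotspots were chosen by their fraction in STUS/B6, the choice was also made the other way round, by the fraction in STUS/Hum, and the sign was the same. In STUS/B6 the B6 side, with 4411 hotspots, is larger than the STUS side, with 759. A choice by the fraction in STUS/Hum therefore favors a negative difference by itself, so it cannot check the sign and its values are a description only. Of 1044 matched STUS hotspots of STUS/Hum, 1026 were called in STUS/B6, and at the 1025 with a fraction the median difference, STUS/Hum minus STUS/B6, was −11.0 points (−12.1 to −10). In STUS/B6 790 of these were matched, 204 were above 75% and 31 were below 25%. No share over all STUS hotspots of STUS/Hum is given beside these counts, so they are a description only. The way alleles were assigned may also have built in a high share called. In the strongest quintile of matched STUS/B6 hotspots the difference was −7.74 points (−9.47 to −5.77). With 1 library per genotype, the partner allele and the library cannot be told apart.

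**Figure D5:**
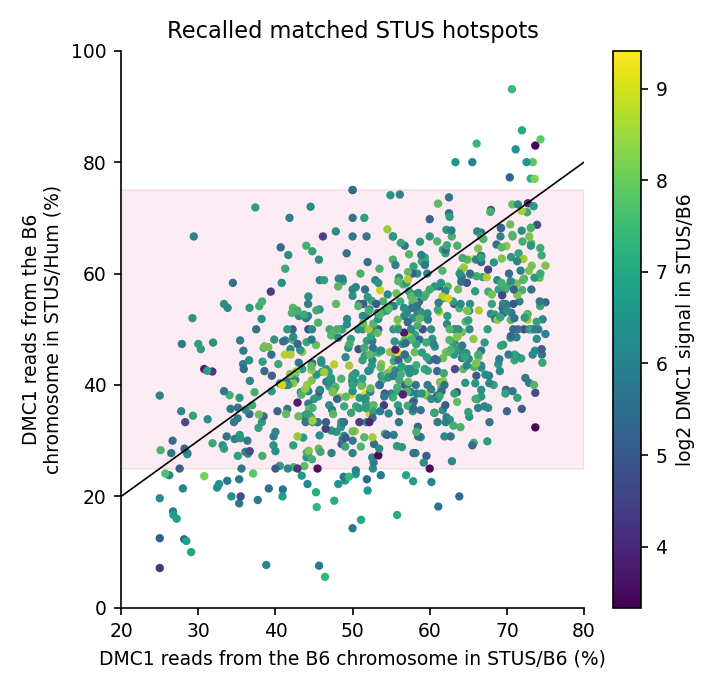
B6 fraction in STUS/B6 (x axis, %) and STUS/Hum (y axis, %) of the 863 matched STUS hotspots with a fraction in both libraries, colored by log2 DMC1 signal in STUS/B6. The shaded band is 25 to 75% in STUS/Hum and holds 800 points, and 663 points lie below the line of equal fractions.

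Across the 863 hotspots Pearson's r between the libraries was 0.494 and Spearman's rho 0.473, over a range that the choice of hotspots had narrowed, and 45.1% of hotspots differed by at most 10 points while 11.2% differed by more than 25. In the strongest quintile r was 0.618 and rho 0.610 over 249 hotspots, and 53.8% differed by at most 10 points. Points of a library share its depth and mapping, so these values describe the 2 libraries.

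The largest higher values in STUS/Hum were at chr2:74342845, 35.1 kb from the lncRNA gene 4930441J16Rik, with B6 fractions of 29.4 and 66.7%, at chr15:20468296 in the cadherin gene Cdh12, with 37.4 and 71.9%, and at chr15:60831821, next to the lncRNA gene 9930014A18Rik, with 41.8 and 70%. Their signals were 75.2, 119 and 71.5 in STUS/B6 and 18.7, 25.5 and 14.6 in STUS/Hum. The largest lower values were at chr4:101220409 in Jak1, a kinase of cytokine receptors, with 63.8 and 20%, at chr9:84070658 in Bckdhb, an enzyme of branched-chain amino acid breakdown, with 61.1 and 18.2%, and at chr5:67029799 in Limch1, with 73.7 and 32.4%. The signals of these 3 were 41.7, 52.7 and 10.1 in STUS/B6 and 11.4, 15.7 and 26.4 in STUS/Hum. All 6 had a signal of 26.4 or less in STUS/Hum, below the 28.7 that was the median of recalled matched hotspots there.

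DMC1 signals of the 931 matched hotspots called in both libraries had r of 0.725 and rho of 0.756 between the libraries on the log2 scale. As deposited, the signal was lower in STUS/Hum at all but 24 of them, with a median log2 ratio of −1.82, but all shared STUS hotspots had a median of −1.89 and the scaling between tables is not stated. Less that median, the log2 ratio of matched hotspots was 0.07 (interval 0.04 to 0.12) and that of the B6 side −0.07 (−0.09 to −0.04). In the strongest quintile, where nearly all were called in both, the values were −0.06 (−0.16 to −0.00) and −0.05 (−0.08 to −0.02). The 5 recalled matched hotspots with the largest signal in STUS/Hum were 4 of the 10 above, those in Smap1, Tpr and Vps13b and the one at chr2:56609756, and the hotspot at chr15:36783249 in Ywhaz, a gene for a 14-3-3 protein. The last had signals of 328 and 254 and fractions of 44.7 and 42.7%, and no allele was assigned to it in STUS/Hum.

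A last overlap was with CAST/SPRT, a hybrid of B6 and M. spretus (SPRET/EiJ). In its B6 Prdm9 allele the DNA-binding zinc fingers were replaced by those of M. m. castaneus. A CAST hotspot of this library lay within 500 bp of 203 matched STUS hotspots, 6.88%, where the background was 8.51% of all autosomal STUS hotspots and 4.49% of all autosomal hotspots of STUS/B6.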

How the data were processed

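DMC1 SSDS libraries of whole testes, 1 for STUS/B6 and 1 for STUS/Hum, were compared, and CAST/SPRT, B6/SPRT and Hum/SPRT were used for overlaps only. The authors identified single-stranded reads, called hotspots without a prior list, assigned the PRDM9 allele by comparison with other mice and placed reads on homologs by SNPs. BWA and mm10 stand in the submitters' processing notes. The deposited DMC1 signal per hotspot has no stated scaling to depth, and the deposited fraction of reads from the B6 chromosome comes without read numbers, so its depth is unknown. Tables were tied to samples by the alleles they name and their hotspot totals. A further 30 columns, H3K4me3 values and the authors' p-values and sharing marks among them, were not used.

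Matched hotspots, quintiles of DMC1 signal over all autosomal STUS hotspots, spacing, centers within 500 bp in the other library and distances to genes of GRCm38.p6 were computed in Python 3.11.15 (scipy 1.17.1, numpy 2.4.6, pandas 2.3.3), and figures were drawn with matplotlib 3.10.9. Promoter sequences are RefSeq's. Shares have 95% Wilson intervals and medians exact order-statistic intervals, over hotspots. With 1 library per genotype there was no test. Classes, pairs, differences and intervals were tested on simulated data. The members and lists were chosen with earlier results of these data known. Hotspots were named by rule: the 10 strongest in STUS/B6, the 5 strongest recalled ones in STUS/Hum, the strongest of each autosome, those next to the limits, the 3 largest differences of B6 fraction each way, the closest pair, the widest gap and the fullest 10 Mb window. Alternatives covered the limits, the signal, the X chromosome, crowded hotspots, the matching distance, the allele in STUS/Hum and centering.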

Additional observations from a re-analysis of the deposited data

Results flagged for a closer look

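Hotspots of the CAST allele, with zinc fingers of M. m. castaneus, in the CAST/SPRT library lie outside the comparison of the B6xSTUS libraries. The share of matched STUS hotspots with such a center within 500 bp, 6.88% (interval 6.02 to 7.85%), was listed as a signal in other data. On the B6 side the share was 10.7% and on the STUS side 4.61%. Hotspots of any allele in the libraries without a CAST allele lay within 500 bp of 0.440% (B6/SPRT) and 0.745% (Hum/SPRT) of matched hotspots. The share followed DMC1 signal, from 4.10% of matched hotspots in the weakest quintile to 13.4% in the strongest. The centers lay a median of 90 bp apart. Of the 203, 88 were also called in STUS/Hum, against 31.5% of all matched hotspots. Calling in STUS/Hum rose with DMC1 signal too, from 1.97% of matched hotspots in the weakest quintile to 98.4% in the strongest. The part of signal in the count of 88 was not tested. The strongest of the 203 was at chr7:55182576. It had a signal of 376 and a B6 fraction of 52.1% in STUS/B6, and 56.8 and 25% in CAST/SPRT. Alleles were assigned by comparison between mice, and whether this overlap entered the assignment was not tested.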

How the results depend on the processing

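Of 56 values recomputed under other choices, 38 stayed within the interval of the reported value (counts within 1.5 times). With limits of 30 to 70% the matched share was 31.5%, the median spacing 573 kb and the share matched again 86.4%, and with limits of 20 to 80% these were 40.5%, 451 kb and 96.5%. Keeping only hotspots at or above the median DMC1 signal of their library left 1230 matched hotspots, a share of 28.1%, with a median signal of 88.9, a spacing of 1178 kb, a recall of 28.9% and a share matched again of 94.5%. This choice also removed the weaker hotspots of STUS/Hum, so fewer centers were left to be matched. Its recall therefore cannot be set against the recall by quintile. Adding the X chromosome gave a matched share of 34.9%, and leaving out hotspots with another within 5 kb gave a spacing of 544 kb. In the strongest quintile of STUS hotspots, a choice made after seeing the data, recall was 98.4%, the share matched again 95.6% and the median difference of B6 fraction −7.74 points. Without centering, the median log2 ratio of signal turned from 0.07 to −1.82, by construction of the centering. The matching distance and the allele in STUS/Hum moved no value out of its interval. No paired analysis was possible because each genotype had 1 DMC1 library, and the shared replicate numbers belong to H3K4me3 samples not used here. The read numbers behind the B6 fractions are unknown, so their precision cannot be given.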
